A study of Mus musculus with 12 samples.

Results

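The class 3 semaphorins were followed in motor neurons of the developing mouse brainstem. They were taken as every gene named *Sema3* in the gene annotation, which gave 7 members (*Sema3a*, *Sema3b*, *Sema3c*, *Sema3d*, *Sema3e*, *Sema3f* and *Sema3g*) among the 49671 genes in the files, and all 7 were among the 18022 genes that passed the filter on low counts. Bulk RNAseq had been made from cells sorted by FACS for GFP from 3 cranial motor nuclei: the oculomotor nucleus (cMN3), the trochlear nucleus (cMN4) and the facial nucleus (cMN7). Each nucleus was sampled at e10.5 and at e11.5 of embryonic development with 2 replicates, giving 12 libraries in 6 groups. All groups carried the Isl1MN:GFP reporter, in which motor neuron elements of the *Isl1* gene drive GFP, and the labels call every one of them wildtype. Per the study's methods, C57BL/6J mothers were mated to reporter fathers on a 129S1/C57BL/6J background, and the sex of the embryos is not known. Cells of several litters were merged for each library, so the sort and not the single embryo was the unit, and a gate on one reporter also admits any other cell that expresses it. The study's methods call the replicates biological, and the labels do not say which sorts or litters they share. The p-values measure the spread between these libraries. The e10.5 RNA was amplified before library construction while the e11.5 RNA was selected with oligo-dT. With the e11.5 samples the study's methods also describe a depletion of ribosomal RNA and of beta-globin mRNA. Age and library construction therefore cannot be told apart. Sixth nerve motor neurons were not analysed here.

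Class 3 semaphorins are secreted guidance cues that steer growing axons and migrating neurons, mostly by repulsion. Most of them bind a neuropilin on the receiving cell, and an A-type plexin in the same complex carries the signal to the cytoskeleton. *Sema3a* acts mainly through *Nrp1* and *Sema3f* mainly through *Nrp2*, whereas *Sema3e* can bind *Plxnd1* without a neuropilin. Motor neurons both receive these cues and make them, and the levels below are those of the sorted cells, not of the tissue that motor axons cross.

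The e10.5 libraries held 13991802 to 21464350 estimated counts each, and those of e11.5 held 21938601 to 30536210. Ribosomal RNA loci took 8.86 to 30.2% of the counts at e10.5 but only 0.0509 to 0.571% at e11.5, with the largest shares in replicate 2 of cMN3 and of cMN4 at e10.5. Motor neuron markers were present as labelled: the 10 motor neuron markers summed to 1212 to 4417 TPM (transcript abundance corrected for gene length) in every library, and *Isl1* stood at 304 to 862 TPM, although *Chat* was at only 0.65 to 2.09 TPM in cMN3 and cMN4 at e10.5. Their sum was lowest in cMN3 (1212 and 1724 TPM at e10.5, 2015 and 2175 TPM at e11.5), intermediate in cMN4 (1739 and 2568 TPM, then 2457 and 3426 TPM) and highest in cMN7 (3509 and 3634 TPM, then 4276 and 4417 TPM). Over both ages 6 of the 10 motor neuron markers were lower in cMN3 than in cMN7 and 7 of 10 lower in cMN4 than in cMN7, with 1 higher in each case. Of all genes tested, 5.89% and 4.89% were lower in these comparisons and 5.44% and 4.73% higher. Markers of other cells were lower but present. The 10 neural progenitor markers summed to 468 to 1367 TPM over the libraries. The 8 floor plate and ventral progenitor markers summed to 209 to 460 TPM and the 8 neural crest and glial markers to 24.9 to 334 TPM. The 8 endothelial markers summed to 1.72 to 10.48 TPM with 5.12 and 10.48 TPM in cMN3 at e10.5 and at most 4 of the 8 above 1 TPM in any library, the 10 mesenchymal markers summed to 3.59 to 31.7 TPM, and the 10 sensory ganglion markers summed to 92.4 to 183 TPM in cMN7 and 40.8 to 79.5 TPM in the other nuclei. Replicate 2 of cMN4 at e11.5 stood apart in neural progenitor markers, which summed to 1367 TPM against 657 TPM in replicate 1. The endothelial marker *Cdh5* stood at 0 to 2.57 TPM, the mesenchymal marker *Dcn* at 0 to 1.65 TPM and the glial marker *Sox10* at 0 to 1.80 TPM. In these bulk samples, fewer cells of a type and less RNA per cell cannot be told apart, and the part of other cell types, or of unequal motor neuron marker levels, in the differences below was not tested.

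Of the 7 genes, 4 lie on 1 stretch of chromosome 5 in GRCm38. In order they are *Sema3d* (chr5:12383385-12588948), *Sema3a* (chr5:13125414-13602565), *Sema3e* (chr5:14025276-14256689) and *Sema3c* (chr5:17574281-17730268), all on the plus strand. The gaps between neighbours were 536465, 422710 and 3317591 bases, with 0, 1 and 16 other protein-coding genes in them. *Sema3b* (chr9:107597674-107609229) and *Sema3f* (chr9:107681500-107710475) lie 72270 bases apart on the minus strand of chromosome 9, and *Sema3g* (chr14:31217860-31230352) is on the plus strand of chromosome 14. Small genes overlap the introns of *Sema3a*, *Sema3d* and *Sema3e*, and none shares an exon base with them.

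*Sema3d* and *Sema3e* carried some of the largest differences between nuclei, so the 250 bases before their RefSeq start sites (GRCm38.p6, plus strand) are shown, with matches to CANNTG, the E-box read by basic helix-loop-helix factors, in capitals. The *Sema3d* window is chr5:12382916-12383165 and the *Sema3e* window is chr5:14025026-14025275.
Sema3d: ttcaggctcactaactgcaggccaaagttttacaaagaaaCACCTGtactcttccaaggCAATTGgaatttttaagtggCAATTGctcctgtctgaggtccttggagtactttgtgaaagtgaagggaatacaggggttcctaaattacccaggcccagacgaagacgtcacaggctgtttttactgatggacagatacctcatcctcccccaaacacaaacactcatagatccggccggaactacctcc
Sema3e: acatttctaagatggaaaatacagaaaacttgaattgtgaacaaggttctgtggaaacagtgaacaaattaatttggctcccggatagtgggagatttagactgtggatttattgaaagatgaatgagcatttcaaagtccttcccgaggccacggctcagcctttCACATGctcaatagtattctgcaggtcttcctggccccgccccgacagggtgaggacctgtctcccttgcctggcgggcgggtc
The *Sema3d* window held 3 E-box matches and the *Sema3e* window 1, and 66.2% of 32851 promoter windows of the same length held at least 1. TAATTA (4.84% of windows), ATCAAT (6.72%) and TATAAA (12.4%) were searched on both strands and not found in either window, and CCAAT (33.8%) was found once, on the minus strand of the *Sema3d* window. CANNTG reads the same on both strands, and 1 *Sema3d* match overlaps the CCAAT match. The base composition of the *Sema3e* window was 48% G or C with 7 CG pairs and that of the *Sema3d* window 46.8% with 4, beside a median of 52.4% over all windows. The set of RefSeq windows used here held 5 of the 7 genes. *Sema3b* and *Sema3f* were not among them, which does not mean that RefSeq lacks their start sites.

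Compared by length-normalised level, *Sema3d*, *Sema3f* and *Sema3c* made up most of the class 3 semaphorin RNA and the order differed between nuclei. At e10.5 the mean TPM was highest for *Sema3d* in cMN3 (59.5) and cMN4 (90.5), and for *Sema3f* in cMN7 (39.3). At e11.5 *Sema3c* (72.1) and *Sema3f* (69.4) led in cMN3 and their libraries overlapped, *Sema3d* (64.8) led in cMN4, and *Sema3f* (44.6) followed by *Sema3c* (33.5) and *Sema3a* (19.0) led in cMN7. *Sema3b* reached at most 5.52 TPM and *Sema3g* at most 1.55 TPM in any library. The same gene could hold opposite places: *Sema3d* was 43.7 and 47.6% of the summed TPM of the family in the cMN4 libraries at e11.5 and 1.67 and 2.75% in those of cMN7.

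**Figure D1:**
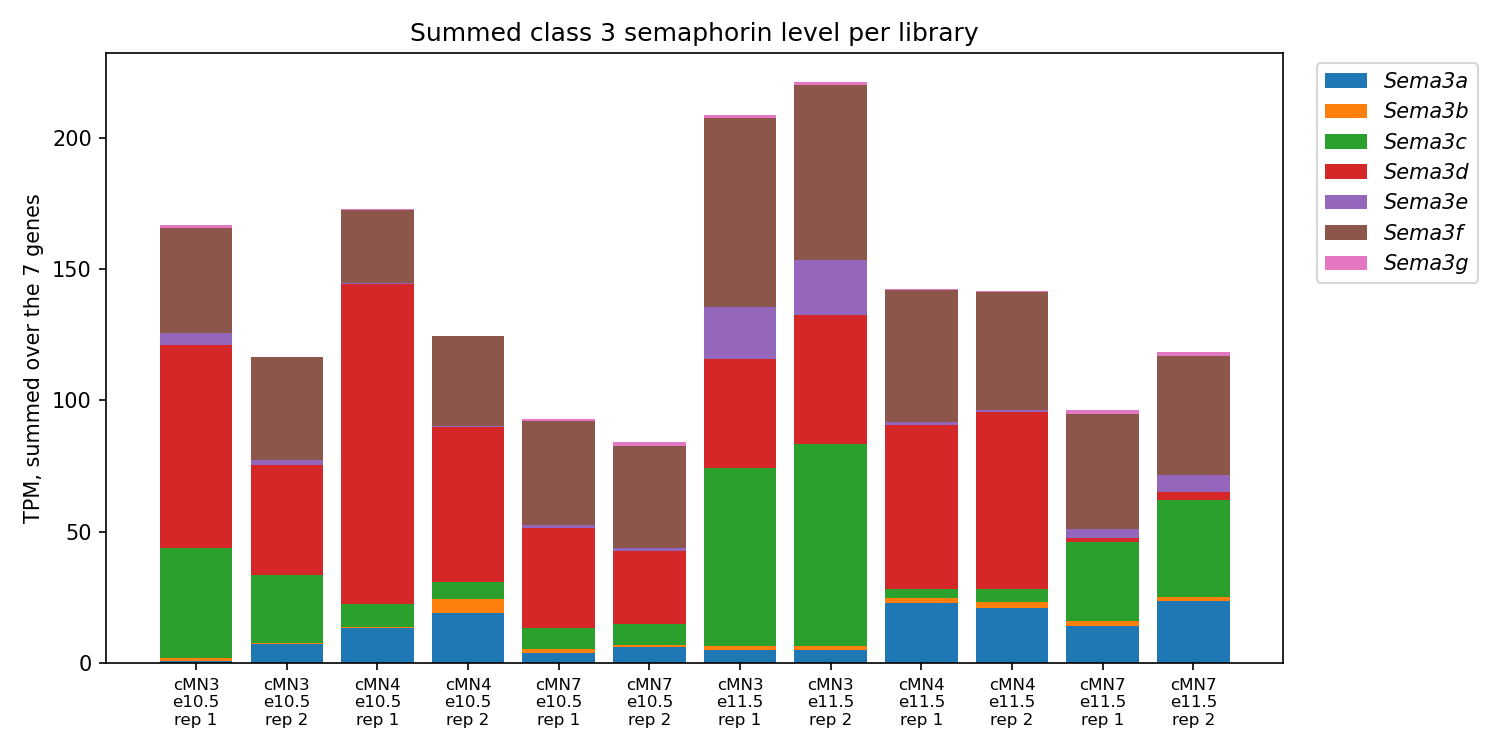
Stacked bars give the TPM of each class 3 semaphorin in each of the 12 libraries, with the 7 genes summed. The sum was 84.0 to 118 TPM in the cMN7 libraries and 117 to 221 TPM in those of cMN3, and the red *Sema3d* block is nearly absent from cMN7 at e11.5.

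The summed level averaged, at e10.5, 142 ± 35.4 TPM (SD, n = 2) for cMN3, 149 ± 33.9 TPM for cMN4 and 88.5 ± 6.35 TPM for cMN7. It averaged 215 ± 8.86, 142 ± 0.615 and 107 ± 15.5 TPM in the same order at e11.5. The cMN7 libraries lay below both other nuclei at each age. Among 14 pairs of gene and age, the highest mean TPM was in cMN3 in 6, in cMN4 in 6 and in cMN7 in 2, both of them *Sema3g*. For comparison between libraries the counts were scaled by TMM (trimmed mean of M values) and are given as CPM (counts relative to the scaled library total), since the ribosomal share lowers TPM at e10.5.

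**Figure D2:**
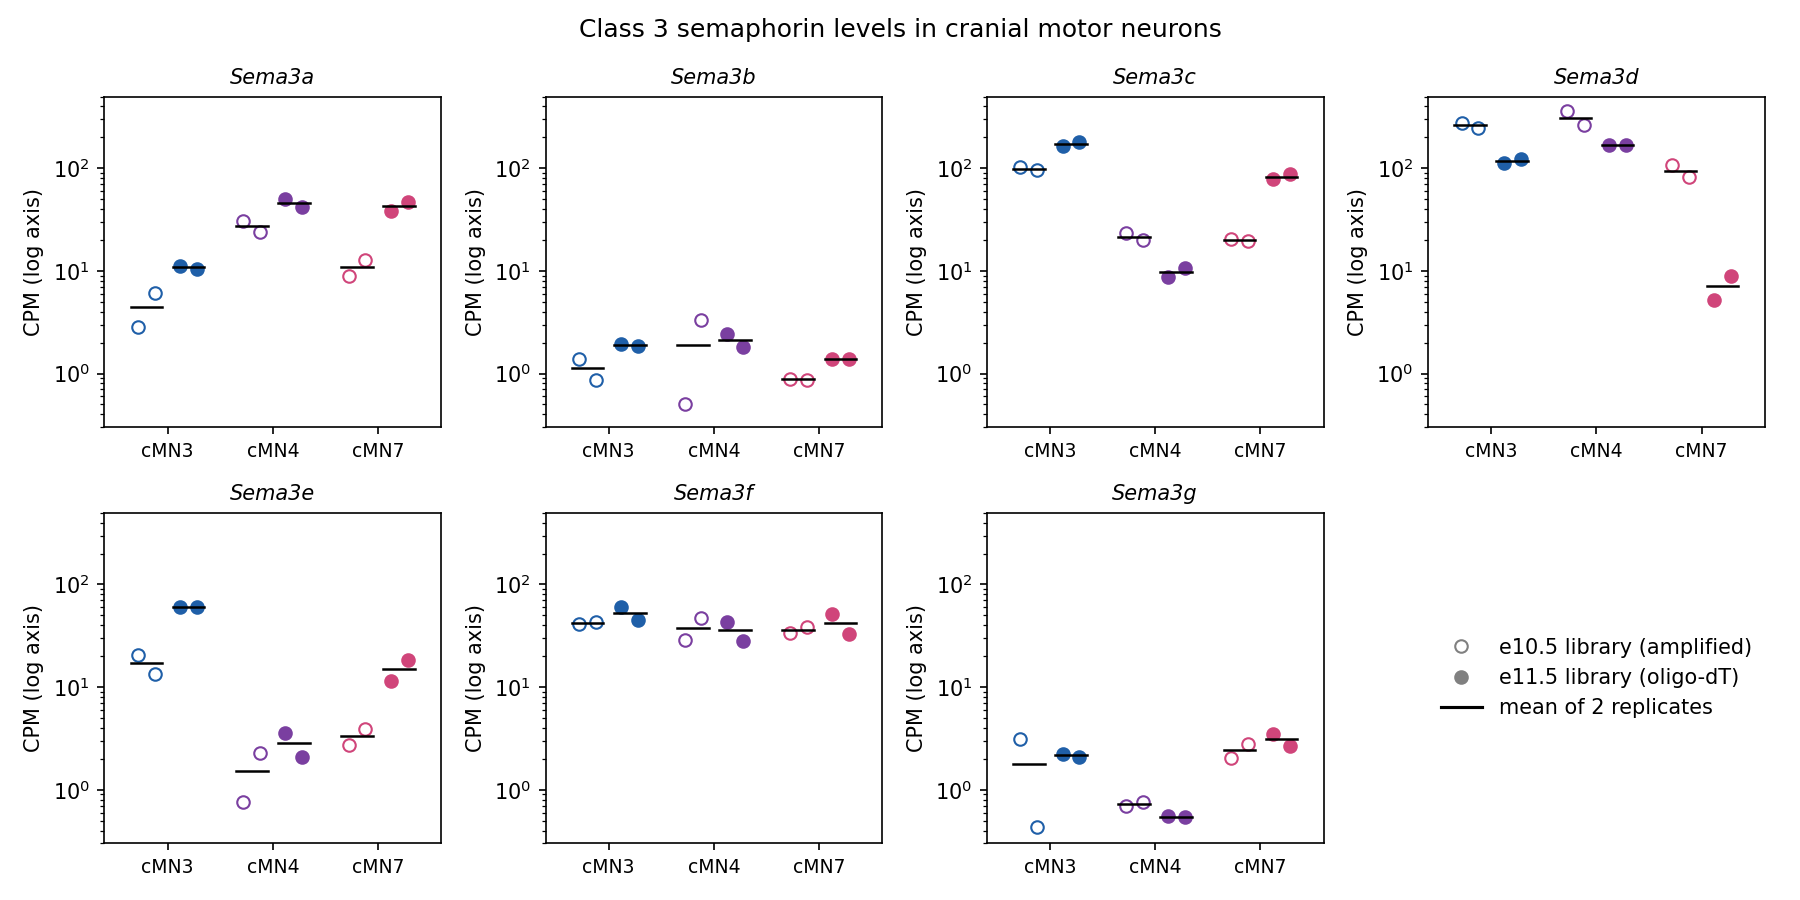
Each panel gives 1 gene, with its CPM after TMM scaling on a log axis, by nucleus. Open points are e10.5 libraries, filled points e11.5 libraries and bars the mean of 2 replicates. *Sema3d* falls to 5.16 and 8.97 CPM in cMN7 at e11.5 while cMN4 is at 169 at that age, and levels are not comparable between panels because CPM ignores gene length.

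*Sema3d*, a cue with known roles in axon and endothelial guidance, separated the eye-movement nuclei from the facial nucleus. At e10.5 its level was 276 and 247 CPM in cMN3, 358 and 262 CPM in cMN4, and 107 and 82.0 CPM in cMN7. At e11.5 it was 113 and 124 CPM in cMN3, 169 and 169 CPM in cMN4, and 5.16 and 8.97 CPM in cMN7. All cMN3 and cMN4 libraries lay above all cMN7 libraries of their age. In edgeR's quasi-likelihood test the log2 fold change of cMN3 over cMN7 was 1.47 ± 0.23 (SE) at e10.5 (adjusted p = 0.00163) and 4.07 ± 0.26 at e11.5 (adjusted p = 2.9e-06). That of cMN4 over cMN7 was 1.72 ± 0.23 (adjusted p = 7.87e-04) and 4.58 ± 0.27 (adjusted p = 2.18e-06), which is 23.8-fold at e11.5. Between cMN3 and cMN4 *Sema3d* did not pass at either age or over both (log2 difference -0.38, 95% interval -0.73 to -0.03, adjusted p = 0.198). With the cMN4 library that was high in progenitor markers left out, the *Sema3d* difference between cMN4 and cMN7 at e11.5 was 4.58 (adjusted p = 6.3e-06).

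*Sema3c*, which is known from heart outflow tract and axon growth, set cMN3 apart. In cMN3 it stood at 102 and 95.7 CPM at e10.5, then at 164 and 179 CPM at e11.5. In cMN4 it stood at 23.3 and 19.8 CPM at e10.5 and at 8.63 and 10.8 CPM at e11.5. In cMN7 it rose from 20.2 and 19.6 CPM to 78.0 and 87.7 CPM. At e10.5 the cMN4 and cMN7 libraries overlapped, and at e11.5 the 3 nuclei were ordered cMN3, cMN7, cMN4 with no overlap. The log2 fold change of cMN3 over cMN4 was 2.20 ± 0.16 at e10.5 (adjusted p = 2.73e-05) and 4.14 ± 0.17 at e11.5 (adjusted p = 6.78e-07), the latter 17.6-fold and rank 1 by p of the 18022 genes in that comparison. Over cMN7, cMN3 was higher by 2.31 ± 0.16 at e10.5 (adjusted p = 5.68e-06) and 1.05 ± 0.15 at e11.5 (adjusted p = 0.0013). For cMN4 against cMN7 the log2 difference was 0.12 ± 0.16 at e10.5 (adjusted p = 0.785) and -3.09 ± 0.16 at e11.5 (adjusted p = 1.32e-06).

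*Sema3e*, the ligand of *Plxnd1*, was likewise highest in cMN3. There it was 20.8 and 13.5 CPM at e10.5 and 60.8 and 60.6 CPM at e11.5. The cMN4 libraries held 0.758 and 2.26 CPM at e10.5 and 3.57 and 2.09 CPM at e11.5, from 12 to 91 counts. The cMN7 libraries held 2.74 and 3.91 CPM, then 11.6 and 18.5 CPM. All cMN3 libraries lay above those of cMN7, and those of cMN7 above those of cMN4, at each age. The log2 fold change of cMN3 over cMN4 was 3.58 ± 0.48 at e10.5 (adjusted p = 0.00184) and 4.43 ± 0.44 at e11.5 (adjusted p = 2.99e-04). Over cMN7, cMN3 was higher by 2.37 ± 0.43 at e10.5 (adjusted p = 0.0036) and 2.01 ± 0.39 at e11.5 (adjusted p = 0.0118). For cMN4 against cMN7 the log2 difference was -1.21 ± 0.50 at e10.5 (adjusted p = 0.206) and -2.42 ± 0.42 at e11.5 (adjusted p = 0.005), and the call at e11.5 ended without replicate 2 of cMN4 at e11.5, where *Sema3e* was -2.06 (adjusted p = 0.0542). The *Sema3e* call of cMN3 over cMN7 at e11.5 ended without either cMN3 library or without replicate 1 of cMN7 of that age, at values of 2.02 (adjusted p = 0.0714 and 0.0699) and 1.72 (adjusted p = 0.1), and the call at e10.5 ended without replicate 1 of cMN7 (2.13, adjusted p = 0.0578).

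*Sema3a*, the founding repellent of the class, ran the other way, with cMN3 lowest. At e10.5 it was 2.85 and 6.09 CPM in cMN3, 30.9 and 23.8 CPM in cMN4, and 8.87 and 12.7 CPM in cMN7. At e11.5 it was 11.3 and 10.51 CPM in cMN3, 50.6 and 41.8 CPM in cMN4, and 37.9 and 47.3 CPM in cMN7. At e10.5 the order was cMN4, cMN7, cMN3 with no overlap, and at e11.5 cMN4 and cMN7 overlapped above cMN3. By edgeR, cMN3 was lower than cMN4 by 2.65 ± 0.33 at e10.5 on the log2 scale (adjusted p = 0.00122) and by 2.08 ± 0.30 at e11.5 (adjusted p = 0.00371), and lower than cMN7 by 1.31 ± 0.33 (adjusted p = 0.0211) and 1.97 ± 0.30 (adjusted p = 0.00233). Against cMN7, cMN4 differed by 1.34 ± 0.31 at e10.5 (adjusted p = 0.0226) and by 0.12 ± 0.29 at e11.5 (adjusted p = 0.947), and over both ages by 0.73 ± 0.21 (adjusted p = 0.0515), which passed in the fit blocked on replicate number (0.75, adjusted p = 0.0257) and without either cMN3 library of e10.5 (0.73 and 0.72, adjusted p = 0.0165 and 0.0173). Several of these calls ended when the effective length entered the fit. The effective length of *Sema3a*, the length over which the authors' counter spread the reads of a gene, was 860 bases in replicate 2 of cMN3 at e10.5 and 1697 bases in replicate 2 of cMN4 at e10.5 but 3942 to 5115 bases in the others. In cMN3 at e10.5, 54 counts became 0.83 TPM in 1 library and 70 counts became 7.29 TPM in the other. With each gene's effective length as an offset in the fit, *Sema3a* in cMN3 against cMN7 was 0.19 at e10.5 (adjusted p = 0.917) and -1.99 at e11.5 (adjusted p = 0.266), and in cMN3 against cMN4 it was -1.77 at e10.5 (adjusted p = 0.205) and -2.09 at e11.5 (adjusted p = 0.317). At e11.5 the lengths were 4418 to 5115 bases, and the values were close to those without the offset (-1.97 and -2.08). Only their adjusted p rose. No other member lost a call between nuclei with that offset. The e10.5 call of cMN3 against cMN7 also ended without replicate 1 of cMN3 (-0.83, adjusted p = 0.111) or replicate 2 of cMN7 (-1.03, adjusted p = 0.174). That of cMN4 over cMN7 ended without replicate 1 of cMN4 (1.13, adjusted p = 0.148) or either cMN7 library (1.10 and 1.62, adjusted p = 0.25 and 0.0658).

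**Figure D3:**
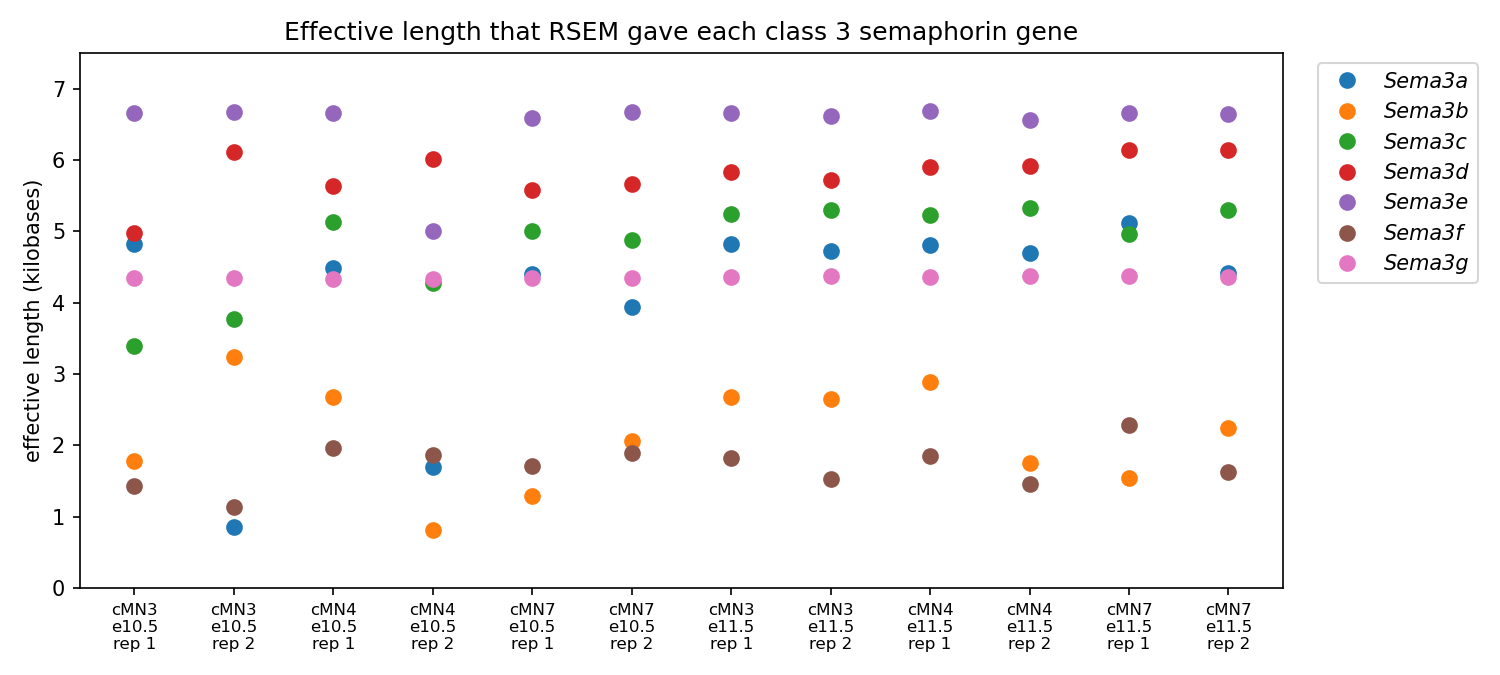
Points give the effective length in kilobases that RSEM assigned to each class 3 semaphorin gene in each library. *Sema3g*, with 1 annotated transcript, varies 1.01-fold and *Sema3d* 1.23-fold, while *Sema3a* varies 5.95-fold and *Sema3b* 4.004-fold, with the lowest points in replicate 2 of cMN3 and cMN4 at e10.5.

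*Sema3f*, the *Nrp2* ligand, was abundant in every group and passed the test in none of the 9 comparisons of nuclei. It stood at 41.2 and 43.0 CPM in cMN3, 28.6 and 46.9 CPM in cMN4, and 34.1 and 38.2 CPM in cMN7 at e10.5. It stood at 61.0 and 45.0 CPM in cMN3, 43.2 and 28.1 CPM in cMN4, and 52.0 and 33.2 CPM in cMN7 at e11.5. The libraries overlapped in 4 of the 6 pairs of nuclei, and cMN3 lay above cMN7 at e10.5 and above cMN4 at e11.5. Within each replicate number of e11.5 the *Sema3f* order was cMN3, cMN7, cMN4, and the fit blocked on replicate number changed no *Sema3f* call. The log2 difference over both ages was 0.27 for cMN3 against cMN7 (95% interval -0.18 to 0.72), -0.10 for cMN4 against cMN7 (-0.55 to 0.35) and 0.37 for cMN3 against cMN4 (-0.08 to 0.82).

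*Sema3b* and *Sema3g* had the fewest counts in total, 415 and 478 over the 12 libraries. *Sema3b* held 8 to 67 counts per library and passed in no comparison of nuclei. At e10.5 its libraries read 1.37 and 0.870 CPM in cMN3, 0.505 and 3.30 CPM in cMN4, and 0.893 and 0.856 CPM in cMN7. *Sema3g*, a gene of arterial endothelium, held 5 to 86 counts per library. It read 0.694 and 0.755 CPM in cMN4 and 2.02 and 2.81 CPM in cMN7 at e10.5, and 0.549 and 0.537 CPM in cMN4 against 3.52 and 2.68 CPM in cMN7 at e11.5. The cMN4 libraries lay below those of cMN7 at both ages, and the log2 difference over both ages was -2.12 ± 0.54 (adjusted p = 0.0293), a call that ended when any 1 of 9 libraries was left out (adjusted p = 0.0549 to 0.112). In cMN3 at e10.5 replicate 1 held 59 *Sema3g* counts and replicate 2 held 5, while the endothelial markers summed to 5.12 and 10.48 TPM in the same order. Without replicate 1 of cMN3 at e10.5, *Sema3g* passed as lower in cMN3 than in cMN7 at that age (-2.47, adjusted p = 0.0413) and over both ages (-1.49, adjusted p = 0.0405), and without replicate 2 it passed as higher in cMN3 than in cMN4 over both ages (2.04, adjusted p = 0.00858). That *Sema3g* comparison of cMN3 with cMN4 passed under 3 other alternatives as well: DESeq2 (adjusted p = 0.0393), no filter on low counts (adjusted p = 0.0402) and without both libraries of the largest ribosomal share (adjusted p = 0.0167). For cMN4 against cMN7 at e11.5 *Sema3g* was -2.50 (adjusted p = 0.114) and passed under 6 alternatives, with adjusted p as low as 0.00795.

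Counted over the family, cMN3 against cMN7 gave 3 of 7 members higher (*Sema3c*, *Sema3d* and *Sema3e*) and 1 lower (*Sema3a*) at e10.5, at e11.5 and over both ages. Of all genes tested, 7.47% were higher and 6.95% lower at e10.5, 2.03% and 2.1% at e11.5, and 5.44% and 5.89% over both ages. cMN4 against cMN7 gave 2 higher and 0 lower at e10.5 (3.22% and 3.33% of all genes), 1 higher and 2 lower at e11.5 (2.06% and 2.08%), and 1 higher and 3 lower over both ages (4.73% and 4.89%). cMN3 against cMN4 gave 2 higher and 1 lower each time, where 4.31% and 3.63% of all genes passed at e10.5, 1.06% and 0.793% at e11.5, and 3.57% and 3.48% over both ages. The median log2 difference of the 7 members was 0.40, -0.10 and 0.37 over both ages in these 3 comparisons, and that of all tested genes was -1e-04, -0.008 and 0.0024. The first and second comparisons share the cMN7 libraries and each shares a nucleus with the third, so their values are not independent. Leaving out both libraries with the largest ribosomal share gave 4, 5 and 4 calls over both ages.

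**Figure D4:**
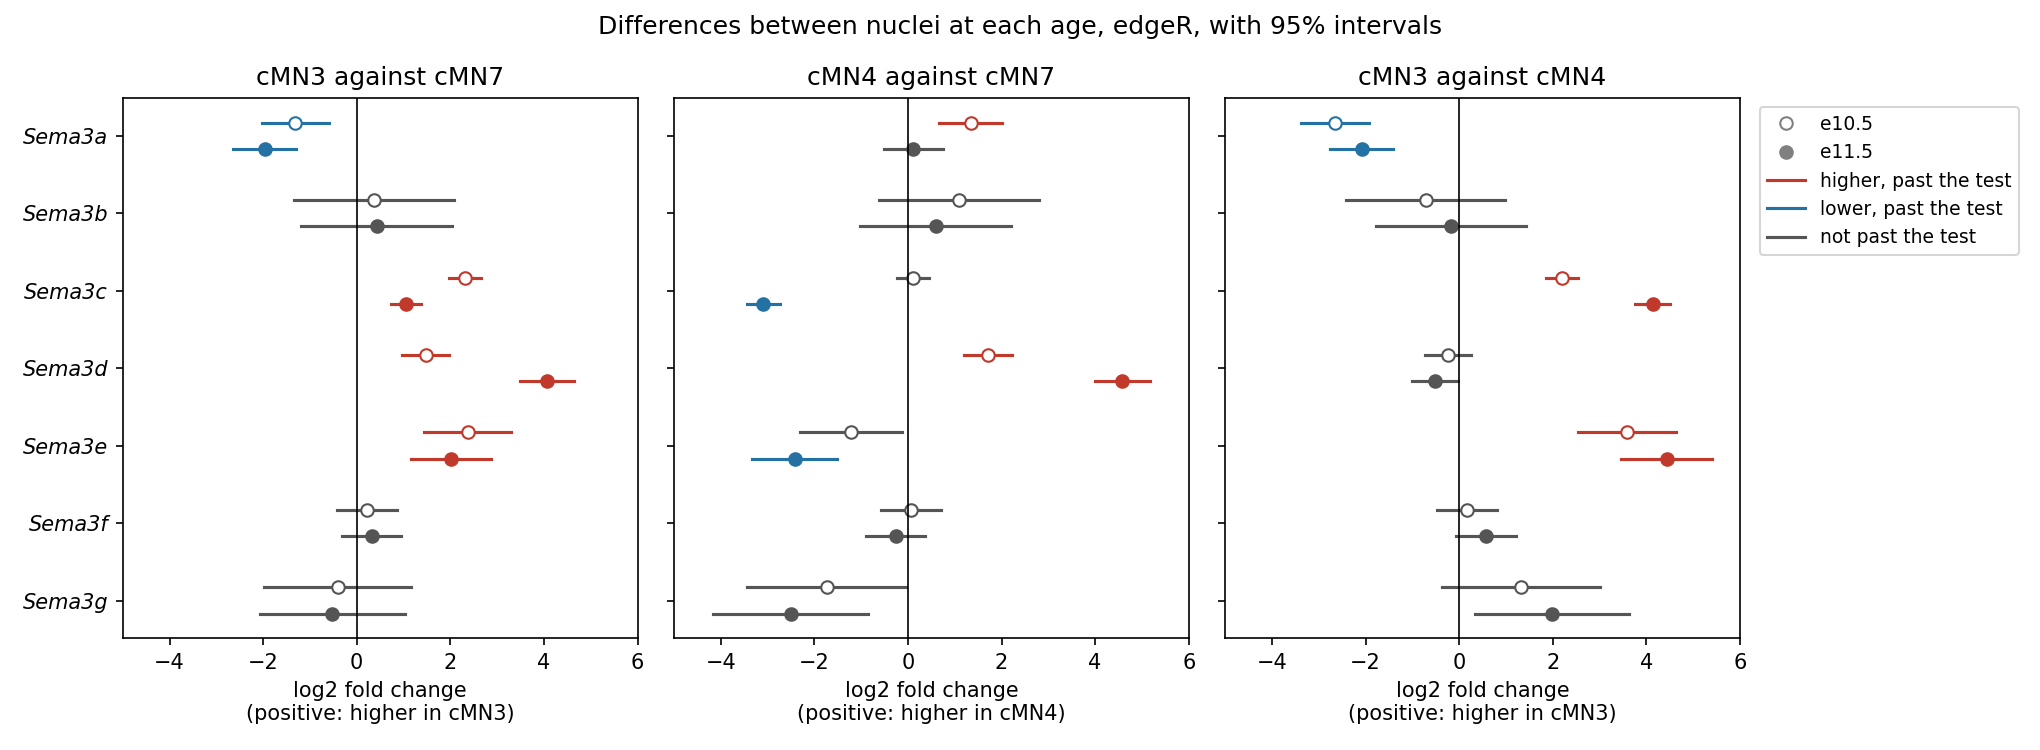
Points give the log2 fold change between nuclei at e10.5 (open) and e11.5 (filled) by edgeR, with bars for the 95% interval, red or blue where the adjusted p passed 0.05. *Sema3d* lies at 4.07 and 4.58 in cMN3 and cMN4 over cMN7 at e11.5, and the *Sema3f* intervals cross 0 in every panel.

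With age, 3 members were higher at e11.5 than at e10.5 over the 3 nuclei (26.6% of all genes) and 1 was lower (23.1%). These were *Sema3a* (log2 change 1.35 ± 0.18, adjusted p = 1.09e-04), *Sema3e* (1.65 ± 0.25, adjusted p = 2.72e-04) and *Sema3c* (0.57 ± 0.09, adjusted p = 3.34e-04), while *Sema3d* fell by 1.92 on the log2 scale (SE 0.14, adjusted p = 2.18e-06). By nucleus, 4 members passed in cMN3 (25.4% of all genes in either direction), 2 in cMN4 (20.4%) and 4 in cMN7 (29.5%), shares of a background that also carries the change in library construction. Other measures moved with age too. Of 8 erythroid markers tested 6 were higher at e11.5 (26.6% of all genes), with sums of 154 to 662 TPM there against 68.2 to 145 TPM in the earlier libraries. Most of these markers are globin genes, and the depletion of beta-globin mRNA described with the e11.5 samples acts on part of them. Of 9 mesenchymal markers 3 were lower, not far from the 23.1% of all genes. The mitochondrial share of counts was 4.84 to 10.1% in the e10.5 libraries, against 1.36 to 1.83% in those of e11.5. Their part in the age differences was not tested. In cMN7 *Sema3d* fell by 3.73 on the log2 scale (adjusted p = 1.75e-05) while *Sema3e* rose by 2.17 (adjusted p = 0.00352), *Sema3c* by 2.06 (adjusted p = 2.67e-05) and *Sema3a* by 1.98 (adjusted p = 0.00111). In cMN4 *Sema3c* fell by 1.15 (adjusted p = 9.82e-04) and *Sema3d* by 0.87 (adjusted p = 0.0213), the latter lost without replicate 2 of cMN4 at e11.5 (*Sema3d* at -0.85, adjusted p = 0.0796) as well as without replicate 1 of that group (-0.84, adjusted p = 0.109) or of cMN4 at e10.5 (-0.60, adjusted p = 0.178). In cMN3 *Sema3a* (1.32, adjusted p = 0.0131), *Sema3c* (0.79, adjusted p = 0.00354) and *Sema3e* (1.82, adjusted p = 0.00722) rose and *Sema3d* fell by 1.14 (adjusted p = 0.00491). Of these, *Sema3a* did not pass without replicate 1 of either age (0.87 and 1.30, adjusted p = 0.0781 and 0.0658), *Sema3e* without replicate 2 of e10.5 (1.56, adjusted p = 0.0558) and *Sema3d* without replicate 1 of e11.5 (-1.05, adjusted p = 0.0573). With effective length as an offset the *Sema3a* change in cMN3 was -0.36 (adjusted p = 0.769) and that of *Sema3c* was 0.31 (adjusted p = 0.185). *Sema3b* passed as higher at e11.5 over the 3 nuclei only without replicate 2 of cMN4 at e10.5, alone (1.17, adjusted p = 0.0175) or with replicate 2 of cMN3 (1.07, adjusted p = 0.0124).

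The difference between nuclei itself was not the same at the 2 ages for 2 members. Age and library construction cannot be told apart in these values either. At e10.5 the ribosomal share was 8.86 and 10.1% in cMN7 but 12.5 to 30.2% in cMN3 and cMN4, and its part in these changes was not tested. For *Sema3c* the cMN4 against cMN7 difference was lower at e11.5 by 3.21 ± 0.22 on the log2 scale (adjusted p = 1.3e-04), rank 1 by p of 18022 genes, of which 0.333% passed. Its cMN3 against cMN7 difference was lower by 1.26 ± 0.21 (adjusted p = 0.0183, 2.7% of all genes) and its cMN3 against cMN4 difference was higher by 1.94 ± 0.22 (adjusted p = 0.00816, 0.0999% of all genes). For *Sema3d* the change was 2.59 ± 0.33 for cMN3 against cMN7 (adjusted p = 0.00647) and 2.86 ± 0.33 for cMN4 against cMN7 (adjusted p = 0.00865). The *Sema3c* change for cMN3 against cMN7 was lost without either cMN3 library of e11.5, either cMN7 library of e10.5 or replicate 2 of cMN3 at e10.5 (-1.19 to -1.31, adjusted p = 0.0593 to 0.121). That of *Sema3c* for cMN3 against cMN4 was lost without replicate 2 of cMN3 at either age or replicate 1 of cMN4 at e10.5 (1.82 to 1.88, adjusted p = 0.056 to 0.0754), and that of *Sema3d* for cMN4 against cMN7 without replicate 1 of cMN7 at e10.5 (2.67, adjusted p = 0.0586). Without both libraries with the largest ribosomal share, only the *Sema3c* change for cMN4 against cMN7 passed (-3.29, adjusted p = 0.00582), with *Sema3d* at 2.53 and 2.68 (adjusted p = 0.0567 and 0.0551).

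The neuropilins, which bind these ligands, differed from each other in level and in pattern. *Nrp2* was high everywhere, with a mean of 144 to 355 TPM in the 6 groups. *Nrp1* was 141 and 129 CPM in cMN7 at e10.5 against 19.5 and 15.3 CPM in cMN3 and 9.03 and 16.6 CPM in cMN4. At e11.5 it was 27.8 and 41.3 CPM in cMN7, 30.3 and 30.2 CPM in cMN3, and 16.9 and 19.1 CPM in cMN4, so cMN3 and cMN7 overlapped at that age. By edgeR, *Nrp1* was lower than in cMN7 by 2.95 ± 0.28 in cMN3 (adjusted p = 5.09e-05) and by 3.41 ± 0.29 in cMN4 (adjusted p = 2.42e-05) on the log2 scale at e10.5, and the values were -0.19 (adjusted p = 0.913) and -0.94 (adjusted p = 0.0783) at e11.5. The cMN4 value at e11.5 passed in the fit blocked on replicate number (*Nrp1* at -0.93, adjusted p = 0.0444). *Nrp1* is also made by endothelium and sensory neurons. In cMN7 at e10.5 the sensory ganglion markers summed to 179 and 183 TPM, above the other nuclei, and the endothelial markers to 1.80 and 1.97 TPM, below cMN3 and cMN4 of that age. The part of these cells in the *Nrp1* difference was not tested. *Nrp2* was higher in cMN3 than in cMN4 by 0.91 ± 0.11 over both ages (adjusted p = 4.62e-04) and lower in cMN4 than in cMN7 by 0.60 ± 0.11 (adjusted p = 0.00396).

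Of the 9 plexins, which include the A-type signalling partners, *Plxna3* reached the highest mean TPM (306, in cMN3 at e11.5) and *Plxnb3* averaged at most 0.41 TPM. *Plxna4* was 1077 and 1030 CPM in cMN4 at e10.5 against 435 and 421 CPM in cMN3 and 288 and 252 CPM in cMN7. The order was cMN4, cMN3, cMN7 with no overlap. Over both ages *Plxna4* was higher in cMN4 than in cMN7 by 1.59 ± 0.18 (adjusted p = 9.2e-05) and lower in cMN3 than in cMN4 by 1.08 ± 0.17 (adjusted p = 0.00314), and in the blocked fit it also passed as higher in cMN3 than in cMN7 (*Plxna4* at 0.54, adjusted p = 0.0205). *Plxna1* was lowest in cMN3, over both ages below cMN7 by 0.97 ± 0.12 (adjusted p = 1.8e-04) and below cMN4 by 0.78 ± 0.12 (adjusted p = 0.00193). At e11.5 alone, *Plxna1* in cMN3 did not pass against cMN7 (-0.56, adjusted p = 0.107) or cMN4 (-0.56, adjusted p = 0.156), nor did *Plxna4* in cMN3 against cMN4 (-0.86, adjusted p = 0.137). *Plxnd1*, the *Sema3e* receptor, was at 2.33 to 6.33 TPM in the group means and passed in no comparison of nuclei. Over both ages 0 plexins were higher and 2 lower in cMN3 than in cMN7 (5.44% and 5.89% of all genes), 1 was higher and 0 lower in cMN4 than in cMN7 (4.73% and 4.89%), and 0 were higher and 2 lower in cMN3 than in cMN4 (3.57% and 3.48%). Of the plexins lower in cMN3 than in cMN7, *Plxna3* (-0.39, adjusted p = 0.0392), did not pass under 11 of 20 alternatives, with adjusted p up to 0.164, among them leaving out any 1 of 8 libraries.

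**Figure D5:**
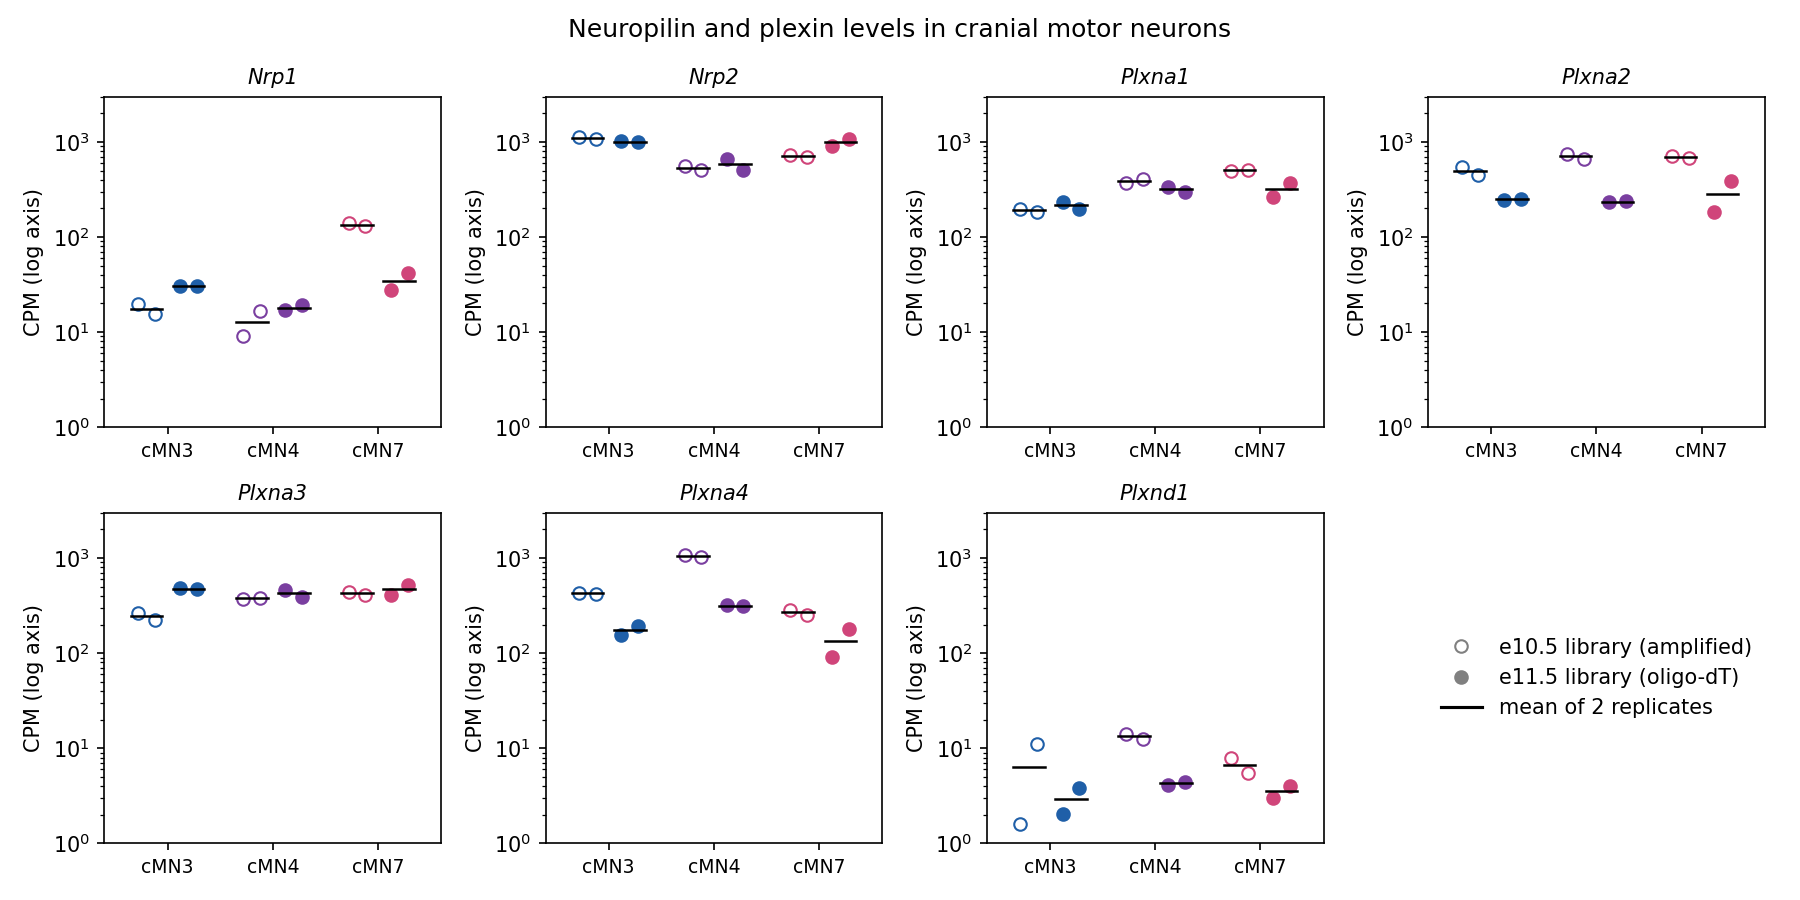
Each panel gives 1 receptor gene, with its CPM after TMM scaling on a log axis, by nucleus, marked as in the plot of ligand levels. *Nrp1* stands at 129 and 141 CPM in cMN7 at e10.5 with every other library at or below 41.3 CPM, and *Plxna4* is highest in cMN4 at each age.

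Cell adhesion molecules of the immunoglobulin class can join neuropilin complexes. Of the 4 tested, *Cntn2* and *Chl1* were lower than in cMN7 in both other nuclei over both ages: *Cntn2* by 2.37 ± 0.13 in cMN3 (adjusted p = 3.19e-07) and by 1.92 ± 0.13 in cMN4 (adjusted p = 1.67e-06), and *Chl1* by 2.51 ± 0.28 (adjusted p = 1.11e-04) and 2.43 ± 0.28 (adjusted p = 1.42e-04). Of all genes, 5.89% were lower in cMN3 than in cMN7 over both ages and 4.89% lower in cMN4 than in cMN7. At e11.5 alone *Chl1* did not pass in either comparison (adjusted p = 0.708 and 0.5). *L1cam*, the partner of *Nrp1*, passed in none of the 9 comparisons of nuclei.

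Among the 13 semaphorins of other classes, which are membrane-bound, 1 was higher and 4 lower in cMN3 than in cMN7 over both ages, 3 were higher and 3 lower in cMN4 than in cMN7, and 1 was higher and 2 lower in cMN3 than in cMN4, beside 5.44% and 5.89%, 4.73% and 4.89%, and 3.57% and 3.48% of all genes. *Sema5a* read 16.6 and 13.0 CPM in cMN3, 253 and 189 CPM in cMN4, and 49.1 and 50.0 CPM in cMN7 at e10.5. The order cMN4, cMN7, cMN3 held without overlap at e11.5 too, at 116 and 111, 50.9 and 67.2, and 5.87 and 9.74 CPM. *Sema5a* was lower in cMN3 than in cMN4 by 3.87 ± 0.18 over both ages (adjusted p = 4.04e-07).

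Of 19 cytoplasmic effectors of plexin and neuropilin signalling, 0 were higher and 3 lower in cMN3 than in cMN7 over both ages, 1 was higher and 2 lower in cMN4 than in cMN7, and 1 was higher and 0 lower in cMN3 than in cMN4, where the shares of all genes were 5.44% and 5.89%, 4.73% and 4.89%, and 3.57% and 3.48%. *Crmp1*, a microtubule-binding mediator of the *Sema3a* response, was lower than in cMN7 by 0.55 ± 0.11 in cMN3 (adjusted p = 0.00569) and by 0.90 ± 0.11 in cMN4 (adjusted p = 1.86e-04). *Mical2*, an actin-oxidising enzyme, was lower by 1.93 ± 0.39 in cMN3 (adjusted p = 0.00678) and by 1.79 ± 0.38 in cMN4 (adjusted p = 0.011). The level of *Mical2* was low, with group means of 0.21 to 2.73 TPM. Of the 4 proprotein convertases, which cleave class 3 semaphorins, *Pcsk5* was higher in cMN3 than in cMN4 by 1.89 ± 0.38 (adjusted p = 0.0134) and *Furin* passed in no comparison of nuclei. At e10.5 alone *Pcsk5* did not pass between cMN3 and cMN4, at means of 6.89 CPM (SD 4.45) and 3.10 CPM (SD 1.89).

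The genes whose pattern was most like each member were named by Pearson's r of log2 CPM over the 12 libraries after the mean of each age was taken out, among 9260 genes of at least moderate level. The points share nuclei and libraries, so r is a description. For *Sema3c* they were *Ntm* (0.97), *Nwd2* (0.96) and *Fam189a2* (0.95), for *Sema3d* they were *Chrnb4* (0.97), *Peak1* (0.97) and *Gfra1* (0.97), for *Sema3e* they were *Chn2* (0.96), *Kcnd2* (0.95) and *Pcsk2* (0.94), and for *Sema3a* they included *Trim16* (0.95) and *Eda* (0.95). *Gfra1*, a GDNF co-receptor, averaged 163 TPM in cMN3, 175 TPM in cMN4 and 27.3 TPM in cMN7 at e11.5. *Chn2*, which encodes a Rac GTPase-activating protein, averaged 94.3 TPM in cMN3, 4.48 TPM in cMN4 and 17.2 TPM in cMN7 at that age. For *Sema3f* the nearest were *Klc4* (0.92), *Fbxw9* (0.92) and *Tmem130* (0.91), for *Sema3b* *Chtop* (0.92), *Wrap53* (0.84) and *Ccdc92b* (0.82), and for *Sema3g* *Vipas39* (0.93), *Ppil2* (0.92) and *Tmem86b* (0.90). *Sema3b* and *Sema3f* passed in no comparison of nuclei, and *Sema3b* and *Sema3g* held only 415 and 478 counts in total. For these genes r need not reflect a difference between nuclei. Among the members themselves r was 0.91 for *Sema3c* and *Sema3e*, -0.87 for *Sema3a* and *Sema3e*, and -0.72 for *Sema3a* and *Sema3c*, and it was -0.21 for *Sema3c* and *Sema3d*.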

How the data were processed

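The values were deposited as 1 table per library from RSEM, made by the authors with STAR alignment to GRCm38 (mm10) per the submitters' processing notes and the study's methods. Each table gives the expected count, the TPM and the effective length of every gene as the authors' run of RSEM estimated them. The e10.5 RNA had been amplified and the e11.5 RNA selected with oligo-dT, with ribosomal RNA and beta-globin mRNA depleted. The gene identifiers were matched to GENCODE symbols, which named 49326 of 49671 genes. Start sites and sequences came from RefSeq (GRCm38.p6). Libraries held 13991802 to 30536210 counts, and genes with few counts have wide intervals that reflect this.

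Expected counts were rounded to whole numbers. Genes were kept by edgeR's filterByExpr, which left 18022. It asks, in at least 2 libraries, for the level relative to library size that equals 10 counts in a library of median size. It also asks for 15 counts in all. Counts were scaled by TMM and tested with edgeR's quasi-likelihood test (edgeR 4.0.16 in R 4.3.3) in 1 fit of 6 groups and 12 libraries, with 6 residual degrees of freedom, and p-values were adjusted by Benjamini-Hochberg over all 18022 genes in each of 16 comparisons at a threshold of 0.05. Each SE was calculated back from the test, as the absolute log2 fold change divided by the square root of the F statistic. The 95% intervals of the log2 fold change were built on these SE values. CPM is the count relative to the TMM-scaled library total. All members were named, and likeness was Pearson's r over 12 libraries after the mean of each age was removed, among genes whose log2 CPM averaged 3 or more (prior count 2). The 3 nearest genes of each member were named, except 1 that is not reported here. The scripts were tested on simulated data.

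The labels give replicates the letters A and B without saying what they share. Deviations from the group means of same-lettered libraries correlated at 0.70, 0.59 and 0.55 between nuclei at e11.5, above 0.1 in each pair, and at 0.06, 0.01 and 0.09 at e10.5. Same-lettered libraries thus deviated alike at e11.5 but not at e10.5. With 2 libraries per group, these values cannot show whether the letters mark shared sorts or litters. The alternatives were DESeq2 1.42.0, RLE size factors, no filter on low counts, limma 3.58.1 on log2(TPM + 1), an effective length offset, a replicate block, a fit of 1 age alone and each library left out. Leaving out both libraries with the largest ribosomal share was added after the data had been seen. The members and gene lists were chosen with earlier results of these data known.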

Additional observations from a re-analysis of the deposited data

Results flagged for a closer look

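The difference between nuclei was not the same at e10.5 and e11.5 for 2 class 3 semaphorins, the neuropilin *Nrp1* and the B-type plexin *Plxnb1* by a test of the interaction in edgeR. Library construction changed together with age, and this test cannot tell them apart. For cMN3 against cMN7 the difference at e11.5 minus that at e10.5 was -1.26 for *Sema3c* (adjusted p = 0.0183), 2.59 for *Sema3d* (adjusted p = 0.00647), 2.76 for *Nrp1* (adjusted p = 0.00788) and 1.04 for *Plxnb1* (adjusted p = 0.0438) on the log2 scale. For cMN4 against cMN7 it was -3.21 for *Sema3c* (adjusted p = 1.3e-04), 2.86 for *Sema3d* (adjusted p = 0.00865) and 2.47 for *Nrp1* (adjusted p = 0.0205). For cMN3 against cMN4 it was 1.94 for *Sema3c* (adjusted p = 0.00816). *Nrp1* did not pass for cMN3 against cMN7 without replicate 1 of cMN7 at e10.5 (2.71, adjusted p = 0.0562), nor for cMN4 against cMN7 without that library (2.41, adjusted p = 0.144), replicate 2 of cMN7 at e10.5 (2.55, adjusted p = 0.0671) or replicate 1 of cMN4 at e10.5 (2.10, adjusted p = 0.0746). The comparisons with cMN7 share its libraries.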

How the results depend on the processing

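Of 2266 values of the members under the alternatives, 2163 kept their side of the threshold, 68 no longer passed, 33 newly passed and 2 that had passed changed sign. Of the 2163, 79 changed sign without passing in either fit, 28 of them for *Sema3f*, 26 for *Sema3b* and 13 for *Sema3g*. The 2 that had passed were *Sema3a* with the effective length offset, at 0.19 (adjusted p = 0.917) for cMN3 against cMN7 at e10.5 and -0.36 (adjusted p = 0.769) for age in cMN3. *Nrp2* in cMN3 against cMN7 at e10.5 was -0.066 (adjusted p = 0.886) and *Plxna1* with age 0.30 (adjusted p = 0.197) with limma on TPM, a scale that the ribosomal share also moves. With limma the members called went from 4 to 1 for cMN3 against cMN7 at e10.5, from 4 to 2 at e11.5, from 2 to 0 for cMN4 against cMN7 at e10.5 and for age in cMN4, and to 0, 1 and 0 in the 3 interactions. *Sema3g* was below the limma filter. With the length offset they went to 1 for cMN4 against cMN7 at e10.5 and 2 for age in cMN3, and with 1 age alone to 1 for cMN4 against cMN7 at e10.5. With no filter they went from 3 to 5 for cMN3 against cMN4 and from 2 to 4 for age in cMN4. Without both libraries of the largest ribosomal share they were 4 for age in cMN4 and 0, 1 and 0 for the interactions. The share of all genes that passed is not given for these fits, nor for those below with 1 library left out. Such counts alone cannot tell a change in the members from a change over all genes. The causes were not tested.

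Leaving out 1 library at a time gave 4 to 5, 3 to 4 and 3 to 4 calls for cMN3 against cMN7 (both ages, e10.5, e11.5), 3 to 5, 1 to 2 and 2 to 4 for cMN4 against cMN7, and 3 to 4, 3 and 3 for cMN3 against cMN4. It gave 4 to 5 for age, 2 to 4, 1 to 3 and 4 for age in cMN3, cMN4 and cMN7, and 1 to 2, 1 to 2 and 0 to 1 for the interactions. The highest mean level was in cMN3 for 5 to 7, in cMN4 for 5 to 6 and in cMN7 for 2 to 3 of the 14 pairs of gene and age.

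With the replicate block, *Sema3a* for cMN4 against cMN7 passed at 0.75 (adjusted p = 0.0257), and at 0.73 (adjusted p = 0.0341) with the block at e11.5 only, and the block changed no other call of a member. Of 176 values for neuropilins and plexins the block gained 10 calls and lost 0. At 5 to 86 counts a library, *Sema3b* and *Sema3g* differences were not well resolved.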
